A study of Mus musculus with 7 samples.

Results

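The nuclear genes for subunits of the mitochondrial respiratory chain were followed in endothelial cells of mouse kidney. Members were chosen by gene symbol: the numbered Nduf genes of complex I, Sdha to Sdhd, the Uqcr genes with Cyc1, cytochrome c (Cycs), the subunit genes Cox4 to Cox8, and every symbol beginning with Atp5. This gave 85 of the 26558 named genes in the deposited table, and 82 of them reached a mean of 1 FPKM (sequenced fragments relative to transcript length and to the mapped total of the library) over all libraries and were tested. The 3 that did not were the complex IV isoforms Cox7b2, Cox8b and Cox8c; Cox8c is listed at 0 in every library. By complex, 35 members belonged to complex I, 4 to complex II, 9 to complex III, 1 was cytochrome c, 19 belonged to complex IV and 15 to complex V. The other 2, Atp5s and Atp5sl, carry the Atp5 name without being subunits of the core enzyme. Ndufa4 and its paralogue Ndufa4l2 were placed in complex IV, where the NDUFA4 protein is now assigned, and not in complex I as their names have it. The subunits encoded by mitochondrial DNA were not analysed here.

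All mice were 3-month-old C57BL/6 males. The mutant group had 4 libraries from mice carrying the Hoxb7-Cre-GFP transgene and Vhlh with both alleles loxP-flanked (Hoxb7-Cre-GFP; Vhlh loxP/loxP), and the wildtype group had 3 libraries from mice with the Hoxb7-Cre-GFP transgene alone, so the recombinase was present in both groups. Hoxb7 drives Cre in the collecting duct and other tubule cells and not in endothelium. Vhlh encodes the von Hippel-Lindau protein, which targets the hypoxia-inducible factors (HIF) for degradation, and its level in endothelial cells is no check of the deletion. Cells were captured with magnetic beads carrying antibody to Cd31, and poly(A) RNA was sequenced without culture. Whether libraries of a group come from different animals is not stated in the labels. The p-values therefore rest on the variation among 7 libraries, which may be technical.

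The respiratory chain passes electrons from NADH (through complex I) and from succinate (through complex II) to ubiquinone, on through complex III and cytochrome c to oxygen at complex IV. Complexes I, III and IV pump protons, and complex V, the ATP synthase, uses the gradient to make ATP. HIF is known to act on this chain, among other routes by exchanging the complex IV subunit Cox4i1 for Cox4i2 and by inducing Ndufa4l2, while endothelial cells are known to draw much of their ATP from glycolysis.

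The upstream sequences of 4 members are printed because these genes showed the largest called increases (Cox5a, Cox7b), the largest fold change in complex V (Atp5k) and the largest negative fold change (Ndufs7). Each is the RefSeq window on GRCm38.p6 from 250 bases before to 50 bases after the transcript start, 300 bases, 5′ to 3′ on the strand of the gene. Capitals mark matches, on either strand, to 4 motifs: GCGC then any base then TGCGC (the site of nuclear respiratory factor NRF1), CCGGAAG (bound by ETS factors such as GABP), ACGTG (the core of the HIF response element) and CCAAT (bound by NF-Y).
Cox5a (chr9:57520982-57521281, plus strand): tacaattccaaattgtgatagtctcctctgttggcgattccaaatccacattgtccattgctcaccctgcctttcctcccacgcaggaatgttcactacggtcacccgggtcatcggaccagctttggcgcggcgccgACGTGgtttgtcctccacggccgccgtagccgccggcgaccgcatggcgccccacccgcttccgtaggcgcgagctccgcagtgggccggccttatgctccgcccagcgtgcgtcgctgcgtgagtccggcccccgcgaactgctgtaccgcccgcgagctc
Cox7b (chrX:106015450-106015749, plus strand): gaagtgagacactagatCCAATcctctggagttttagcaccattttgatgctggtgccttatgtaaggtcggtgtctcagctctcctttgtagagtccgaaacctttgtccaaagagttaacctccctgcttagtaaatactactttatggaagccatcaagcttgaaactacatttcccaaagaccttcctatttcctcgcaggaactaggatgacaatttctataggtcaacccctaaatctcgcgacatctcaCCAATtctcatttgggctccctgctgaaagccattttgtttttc
Atp5k (chr5:108434350-108434649, minus strand): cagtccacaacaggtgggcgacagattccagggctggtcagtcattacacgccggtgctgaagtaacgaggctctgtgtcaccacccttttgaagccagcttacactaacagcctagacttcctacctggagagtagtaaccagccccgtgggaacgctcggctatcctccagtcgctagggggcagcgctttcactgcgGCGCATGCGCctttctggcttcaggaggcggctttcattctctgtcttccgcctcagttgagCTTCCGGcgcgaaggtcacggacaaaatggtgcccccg
Ndufs7 (chr10:80249199-80249498, plus strand): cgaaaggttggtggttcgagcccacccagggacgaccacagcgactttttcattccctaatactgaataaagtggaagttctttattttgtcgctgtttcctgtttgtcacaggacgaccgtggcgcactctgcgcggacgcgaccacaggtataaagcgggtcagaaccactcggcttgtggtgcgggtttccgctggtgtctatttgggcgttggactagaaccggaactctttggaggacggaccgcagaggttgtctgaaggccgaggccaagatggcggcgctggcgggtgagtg
Cox5a held 1 ACGTG match, Cox7b held 2 CCAAT matches, Atp5k held 1 NRF1 and 1 ETS match, and Ndufs7 held none. Promoters were found for 69 of the 85 members. The NRF1 motif was in 24% of the 75 promoters of those members and in 4.6% of all 32851 promoters of the same length. For the ETS motif the shares were 21.3% and 8.86%, for ACGTG 29.3% and 19.6%, and for CCAAT 44% and 37.4%. All promoters, the set compared with, were not matched to those of the members in GC content or expression level. A match describes letters and not a bound site. Uqcrb, Cox4i1, Cox4i2 and Ndufa4l2 had no entry in the table of promoters.

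Among 13420 genes tested with limma on log2(FPKM + 1), 16.1% differed between mutant and wildtype at a Benjamini-Hochberg adjusted p under 0.05, 8.76% higher and 7.34% lower. Libraries held 13222 to 13337 genes at 1 FPKM or more, and their log2 values correlated within groups at 0.947 to 0.978. The read depth is unknown because FPKM carry no counts; relative depths read from the lowest values ran from 0.711 in wildtype 3 to 1 in wildtype 1. Endothelial markers were present in all libraries, with 12 of 12 above 1 FPKM and a summed level of 1730 to 2523 FPKM in wildtype and 2518 to 3011 FPKM in mutant libraries, and 4 of the 12 passed the test as higher (0 with each library rescaled to the same total). All 10 macrophage markers were lower in the mutants, from 2493 to 4039 FPKM summed in wildtype to 604 to 1352 FPKM. Of the distal nephron and collecting duct markers 2 of 11 were higher and 0 lower (1519 to 1747 against 1792 to 2799 FPKM summed, most of it Umod), or 1 higher and 3 lower with scaling on the pan-endothelial markers. At an unadjusted limma p under 0.05 there were 9 of the 11 (81.8%, against 32.4% of all genes), with fold changes in both directions. The 2 called were Slc12a3, of the distal tubule, with a log2 fold change of 0.84, and Atp6v1g3 with 1.03. Aqp2 and Aqp3, the water channels of the collecting duct, had -1.22 and -0.67. Neither was called (limma adjusted p = 0.0711 and 0.133). Slc4a1, also not called, had 0.91, and 8 of the 11 markers were above 0. Of the proximal tubule markers 0 of 11 passed the test, 1 having an unadjusted p under 0.05 (3064 to 5715 against 1104 to 8085 FPKM summed). On average most of that sum was Kap alone, at 3147 ± 1019 FPKM in wildtype and 2407 ± 2971 in mutants (SD). In such bulk libraries fewer cells of a type and less RNA per cell cannot be told apart, and the part of these other cells in the values that follow was not tested.

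Of the 82 tested members 3 were higher in the mutants and 0 lower, which is 3.66% higher against 8.76% of all genes. The 3 were Cox5a and Cox7b of complex IV and Uqcrb of complex III. At an unadjusted p under 0.05 there were 24 members (29.3%, against 32.4% of all genes). The share of members called higher was below that of the whole table here and under 18 of the 21 alternatives. It was above it in the other 3: 17.1% against 9.21% with libraries rescaled to the same total without microRNA and small nucleolar RNA genes, 14.6% against 8.999% with the length correction and 24.4% against 16.8% with array weights. Fold changes were small and mostly positive: 68 of 82 members (82.9%) had a log2 fold change above 0, against 56.8% of all genes, and the median was 0.20 against 0.04, but with libraries scaled on the pan-endothelial markers 7 of 82 were above 0 and the medians were -0.16 and -0.27. The distance of the members' median above that of all genes stayed positive under all 21 alternatives, between 0.06 (quantile normalization) and 0.21. Several of these could change it little. A factor that rescales a whole library largely cancels in this distance, and leaving out the trend does not alter the fold changes. In 24 members (29.3%) every mutant library lay above every wildtype library, against 18.9% of all genes, and in 1, Ndufa4l2, every mutant library lay below, against 12.5%.

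The mutant libraries were unequal. Mutant 4 had the highest FPKM of all 7 libraries in 66 of 82 members, mutant 3 in 10, and wildtype 1 or 2 the lowest in 22 and 29. Against the wildtype mean, 54 members were above it in mutant 1, 51 in mutant 2, 77 in mutant 3 and 78 in mutant 4. The median member stood 0.07, 0.06, 0.20 and 0.39 above the wildtype mean on the log2 scale in mutants 1 to 4, while the median of all genes stood at -0.003, 0.009, 0.07 and 0.09. Without mutant 4 the members' median log2 fold change was 0.12. The summed FPKM of the members made up 2.37% to 2.49% of all named FPKM in wildtype and 2.44%, 2.58%, 3.06% and 3.06% in mutants 1 to 4, so that mutant 1 lay inside the wildtype range. With microRNA and small nucleolar RNA genes left out of the total the shares were 2.59%, 2.53% and 2.71% in wildtype and 2.96%, 2.84%, 3.20% and 3.35% in mutants 1 to 4, without overlap. The mean log2 level of the proximal tubule markers, whose cells are rich in mitochondria, was 5.59, 5.63 and 6.68 in wildtype 1 to 3 and 6.14, 5.71, 5.09 and 6.39 in mutants 1 to 4, so that it was high in mutant 4 and lowest of all in mutant 3. That of the distal nephron and collecting duct markers was 5.32, 5.26 and 5.17 in wildtype and 5.33, 5.17, 5.85 and 5.67 in mutants, highest in mutants 3 and 4, where the members were highest too. The part of tubule RNA in the levels of the members was not tested.

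**Figure D1:**
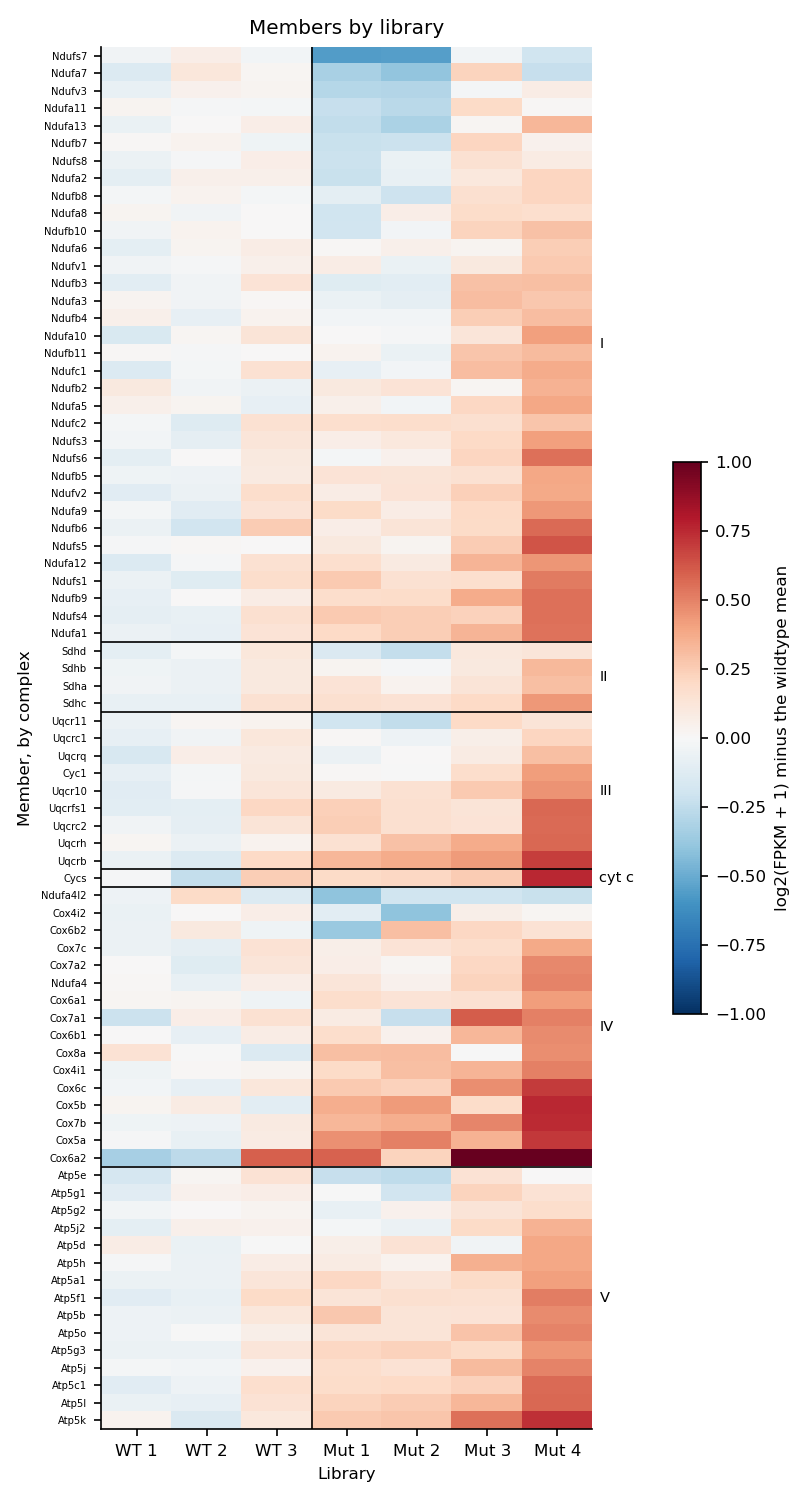
Heat map of 79 tested members (rows, by complex and then by fold change; Atp5s, Atp5sl and 1 complex I member are left out) in the 7 libraries (columns). Colour is log2(FPKM + 1) minus the mean of the wildtype libraries, and saturates at 1 in either direction, which Cox6a2 reaches in mutants 3 and 4. The column of mutant 4 is the reddest, and a group of complex I members at the top is blue in mutants 1 and 2.

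By complex, the median log2 fold change was 0.14 in complex I, 0.13 in complex II, 0.24 in complex III, 0.25 in complex IV and 0.24 in complex V, and under scaling on the pan-endothelial markers these were -0.22, -0.23, -0.12, -0.10 and -0.12 beside a median of all genes of -0.27. Members called higher numbered 0 of 35 in complex I, 0 of 4 in II, 1 of 9 in III, 2 of 16 in IV and 0 of 15 in V. Of all genes 8.76% were called higher. At an unadjusted limma p under 0.05 the members numbered 7, 0, 2, 8 and 7 in the same order. These were 20%, 0%, 22.2%, 50% and 46.7%, against 32.4% of all genes. Groups without overlap, mutants above, numbered 7, 0, 3, 6 and 8. These were 20%, 0%, 33.3%, 37.5% and 53.3%, against 18.9% of all genes. Without mutant 4 the medians of complexes I and II were both 0.07, those of III and IV both 0.17, and that of V 0.17.

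**Figure D2:**
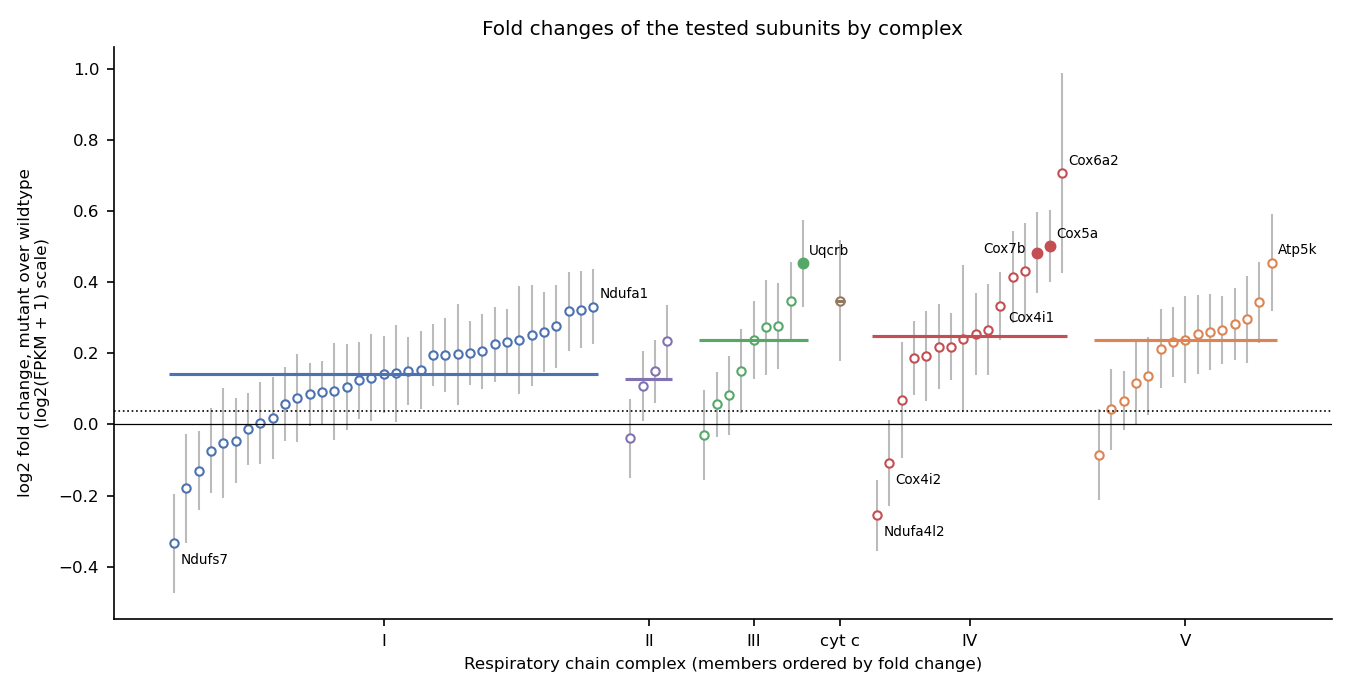
Log2 fold change (mutant over wildtype, log2(FPKM + 1) scale) of each tested member, ordered within its complex; bars are the standard errors of the limma fit, filled points the 3 members with an adjusted p under 0.05, coloured lines the median of each complex and the dotted line the median of all genes, 0.04. Complex medians lie between 0.13 and 0.25, and between -0.23 and -0.10 under scaling on the pan-endothelial markers.

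Complexes were also compared within each library. The mean log2 level of the 16 complex IV members minus that of the 35 complex I members was 0.044, 0.038 and 0.036 in wildtype 1 to 3 and 0.204, 0.197, 0.139 and 0.203 in mutants 1 to 4. Every mutant library lay above every wildtype library. The mean log2 fold change of complex IV exceeded that of complex I by 0.15, and this difference lay between 0.14 and 0.18 under the 21 alternatives. Those that only rescale whole libraries could hardly change it, because such a factor nearly cancels in it. With Ndufa4 and Ndufa4l2 counted in complex I it was 0.19. No p is given for it, because the members of a complex are not replicates. Complex V minus complex I was 1.49, 1.48 and 1.53 in wildtype and 1.63, 1.61, 1.54 and 1.6 in mutants 1 to 4, again without overlap but with mutant 3 next to wildtype 3. Complex III minus complex I was 0.878, 0.887 and 0.951 in wildtype and 1.02, 1.02, 0.922 and 1.03 in mutants 1 to 4, and these groups overlapped, mutant 3 being below wildtype 3. Complex II minus complex I overlapped between the groups, from -0.11 to -0.03 in wildtype and from -0.13 to -0.01 in the mutants.

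**Figure D3:**
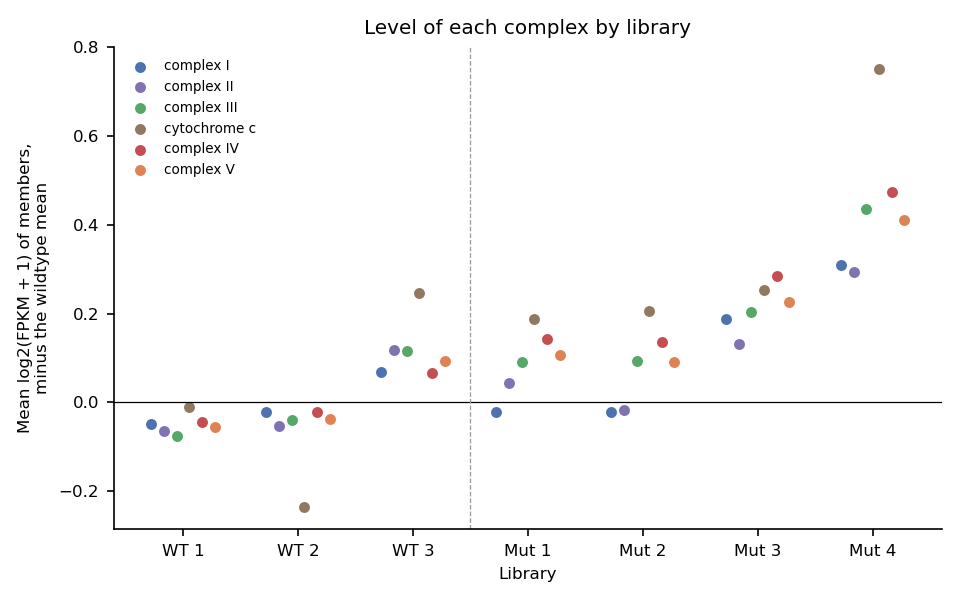
Mean log2(FPKM + 1) of the tested members of each complex in each library, minus the mean of the 3 wildtype libraries (horizontal line at 0). Complex IV is above complex I in all 4 mutant libraries, and mutant 4 is the highest library for all complexes and for cytochrome c.

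Complex I, the NADH dehydrogenase, is built from core subunits that carry flavin and iron-sulphur clusters and from accessory subunits around them. In wildtype its 35 members ran from 10.3 FPKM (Ndufa11) to 172 FPKM (Ndufa3), with a median of 64.4 FPKM. None passed the test, in either direction. The smallest p belonged to Ndufa1, an accessory subunit of the membrane arm encoded on the X chromosome (37187588 to 37191163, minus strand), at 78.1, 76.9 and 89.3 FPKM in wildtype and 93.6, 96.6, 103 and 119 FPKM in the mutants. The groups did not overlap, and the log2 fold change was 0.33 ± 0.11 (SE; adjusted p = 0.0706, limma with Benjamini-Hochberg adjustment). Ndufs4, an accessory subunit whose loss in mice causes a Leigh-like encephalopathy, had 24.0 ± 2.51 FPKM in wildtype and 30.2 ± 3.48 FPKM in mutants (SD of 3 and 4 libraries, as for all such pairs of values), a log2 fold change of 0.32 with a limma adjusted p of 0.0836. Ndufb9, an accessory subunit of the membrane arm, had 116 ± 6.21 and 146 ± 18.6 FPKM, with a limma adjusted p of 0.0907. Ndufa3, the most abundant, had 172 ± 3.78 and 187 ± 27.6 FPKM, and its groups overlapped.

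Among the core subunits of complex I, the 3 members of the NADH-oxidising module (Ndufv1, Ndufv2, Ndufs1) stood at a median of 0.21 in log2 fold change, or at -0.15 with scaling on the pan-endothelial markers. Ndufs7, which holds the last iron-sulphur cluster before ubiquinone and whose upstream sequence is printed above, had 62.9, 67.3 and 63.0 FPKM in wildtype and 43.4, 43.7, 63.0 and 55.9 FPKM in mutants 1 to 4. Mutants 1 and 2 were low and mutant 3 was level with the wildtype libraries. Its log2 fold change of -0.33 ± 0.14 (SE) had a limma adjusted p of 0.145, and without mutant 3 it was among the genes called lower. Ndufa7 and Ndufv3 went the same way in mutants 1 and 2, at 77.0 and 73.4 FPKM and at 59.2 and 58.8 FPKM, below all wildtype libraries (88.0 to 104.5 and 68.7 to 74.6 FPKM), while mutant 3 had 113 and 71.3 FPKM. Mutant 4 had 82.3 FPKM of Ndufa7, below all wildtype libraries, and 76.2 FPKM of Ndufv3, above all of them. Ndufs7, Ndufa7 and Ndufv3 were picked after their values were seen.

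Complex II, the succinate dehydrogenase of the citric acid cycle, had 0 of 4 members called. Sdha, the flavoprotein, had 99.4 ± 6.20 FPKM in wildtype and 110.5 ± 8.74 in mutants, and Sdhb, the iron-sulphur subunit, had 87.7 ± 5.33 and 94.9 ± 10.2 FPKM. Of the membrane anchors, Sdhc had 73.9 ± 7.13 and 87.2 ± 8.47 FPKM (log2 fold change 0.23, limma adjusted p = 0.159) and Sdhd 18.5 ± 1.47 and 18.1 ± 2.38 FPKM. All 4 overlapped between the groups.

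Complex III, the cytochrome bc1 complex, had 1 called member among 9. Uqcrb, a small subunit that binds ubiquinone (chromosome 13, 66900617 to 66905378, minus strand), had 177, 169 and 213 FPKM in wildtype and 233, 240.4, 249.5 and 299.6 FPKM in mutants 1 to 4. All mutant libraries lay above wildtype 3, the highest of its group. The log2 fold change was 0.45 ± 0.12 (SE) with a limma adjusted p of 0.0439, a call lost under 12 of 21 alternatives, where the adjusted p reached 0.727, among them the omission of any 1 library except wildtype 3 (0.123 without wildtype 1, 0.169 without wildtype 2, 0.0653, 0.0710, 0.0649 and 0.0717 without mutants 1 to 4). Uqcrh, the acidic hinge protein that contacts cytochrome c, had 244 ± 8.25 and 312 ± 39.0 FPKM without overlap (log2 fold change 0.35, limma adjusted p = 0.0695). Uqcrc2, a core protein, had 77.8 ± 6.24 and 95.0 ± 14.0 FPKM without overlap (limma adjusted p = 0.160). The electron carriers Cyc1 (cytochrome c1) and Uqcrfs1 (the Rieske protein) overlapped between the groups, at 82.4 ± 5.43 and 92.1 ± 13.2 FPKM and at 64.4 ± 8.34 and 78.2 ± 11.9 FPKM. Cytochrome c itself, Cycs, had 32.0, 27.2 and 38.4 FPKM in wildtype and 36.9, 37.3, 38.6 and 54.9 FPKM in mutants 1 to 4. Only mutant 4 stood clear of wildtype 3 (log2 fold change 0.35, limma adjusted p = 0.198).

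Complex IV, cytochrome c oxidase, held the other called members, Cox5a and Cox7b. Cox5a, a subunit on the matrix side (chromosome 9, 57521274 to 57532426, plus strand), had 104.5, 100 and 111 FPKM in wildtype and 145, 149.5, 134 and 172 FPKM in mutants 1 to 4. The lowest mutant library was above the highest wildtype library. The log2 fold change was 0.50 ± 0.10 (SE; limma adjusted p = 0.0159), and the call was lost under 3 of 21 alternatives: without wildtype 2 (adjusted p = 0.0795), with scaling on the pan-endothelial markers (0.529) and with a replicate block (0.0986). Cox7b, a small subunit spanning the membrane (X chromosome, 106015700 to 106022450, plus strand), had 79.7, 79.2 and 87.3 FPKM in wildtype and 104, 106, 116 and 138 FPKM in mutants 1 to 4, without overlap. Its log2 fold change was 0.48 ± 0.11 (SE; limma adjusted p = 0.0275), and the call was lost under 6 alternatives, among them the omission of wildtype 1 (0.0823), wildtype 2 (0.114) or wildtype 3 (0.0599).

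The 11 general isoforms of complex IV all had positive fold changes, from 0.19 (Cox7c) to 0.50 (Cox5a) with a median of 0.27, although under scaling on the pan-endothelial markers 4 of the 11 were above 0 and the median was -0.09. Cox4i1, the subunit that binds ATP and the most abundant of the complex (chromosome 8, 120668222 to 120674207, plus strand), had 351, 363 and 368 FPKM in wildtype and 412, 444, 457 and 513 FPKM in mutants, without overlap. Its log2 fold change of 0.33 ± 0.10 (SE) fell just outside the threshold (limma adjusted p = 0.0512), and 8 alternatives took it inside. Next to it were Cox6c at 267 ± 18.7 and 359 ± 55.1 FPKM (limma adjusted p = 0.0664) and Cox5b at 170.3 ± 11.2 and 232 ± 39.6 FPKM (limma adjusted p = 0.0694), both without overlap. Cox6a1 was at 267 ± 7.49 and 311 ± 30.2 FPKM without overlap, and Cox6b1, Cox7a2, Cox7c, Cox8a and Ndufa4 overlapped between the groups. Cox6b1, the most abundant after Cox4i1, had 292 ± 16.1 FPKM in wildtype and 351 ± 45.6 in mutants (log2 fold change 0.25, limma adjusted p = 0.174). Cox7a2 had 102 ± 8.67 and 117 ± 17.6 FPKM (0.19), and Ndufa4 had 279 ± 14.1 and 327 ± 46.4 FPKM (0.22).

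The isoforms of complex IV that other tissues or low oxygen favour had a median log2 fold change of 0.07 (-0.19 with scaling on the pan-endothelial markers). Of the 5 tested 0 were called, while of all genes 8.76% were called higher and 7.34% lower. At an unadjusted limma p under 0.05 there were 2 (40%, against 32.4% of all genes), in opposite directions: Cox6a2 (0.71) and Ndufa4l2 (-0.26). Cox4i2, the isoform known to be raised by low oxygen in lung, stood at 3.69, 3.93 and 4.14 FPKM in wildtype and 3.57, 2.72, 4.11 and 3.98 FPKM in mutants, and the groups overlapped (log2 fold change -0.11, limma adjusted p = 0.580). Its share of the summed Cox4 FPKM was 1.07% ± 0.04 in wildtype and 0.78% ± 0.13 in mutants, and the log2 ratio of Cox4i2 to Cox4i1 was lower in every mutant than in every wildtype library, by a difference of -0.44 (exact permutation test over the 35 splits, two-sided p = 0.0286, the smallest this design allows; 0.2 after Benjamini-Hochberg adjustment over 7 ratios). Ndufa4l2, known as a HIF target that lowers complex I activity, had 8.16, 9.85 and 7.64 FPKM in wildtype and 6.20, 7.28, 7.28 and 7.15 FPKM in mutants. All mutant libraries were below all wildtype libraries, and the log2 fold change was -0.26 ± 0.10 (SE; limma adjusted p = 0.124). The log2 ratio of Ndufa4l2 to Ndufa4 differed by -0.47 (exact permutation p = 0.0571, adjusted 0.2). Neither gene was called higher under any of the 21 alternatives. In other settings Ndufa4l2 is known from pericytes. The pericyte and smooth muscle markers were at 160.3 to 221 FPKM summed in wildtype and 156 to 182 FPKM in mutants. Of these 12 markers 1 was higher (Abcc9; 8.33%, against 8.76% of all genes) and 1 lower (Notch3, against 7.34% of all genes). Their part in the value of Ndufa4l2 was not tested.

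**Figure D4:**
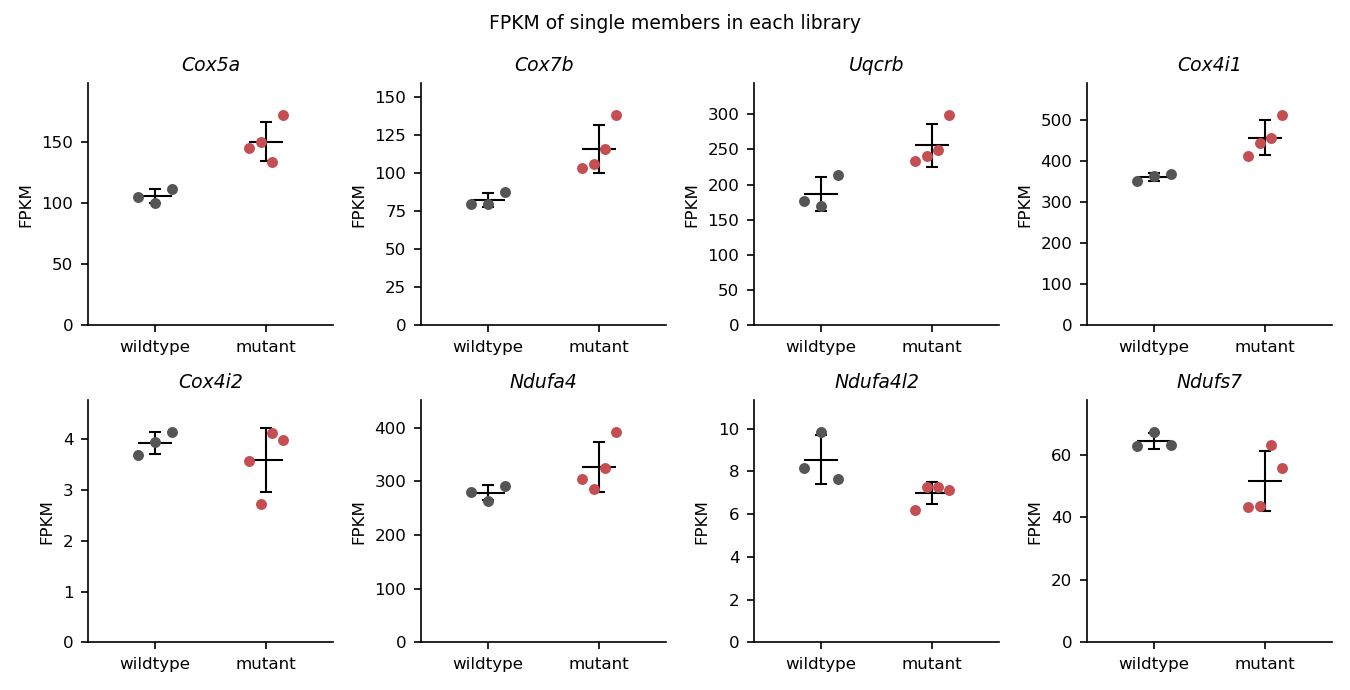
FPKM of 8 members in the 3 wildtype (grey) and 4 mutant (red) libraries, with the mean (horizontal mark) and SD (bars); each axis begins at 0. Cox5a, Cox7b, Uqcrb and Cox4i1 do not overlap between the groups and are higher in the mutants, Ndufa4l2 does not overlap and is lower, and Cox4i2, Ndufa4 and Ndufs7 overlap.

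The muscle isoforms were lower than the general isoforms they pair with. Cox6a2, of heart and skeletal muscle, had 0.48, 0.55 and 1.81 FPKM in wildtype and 1.80, 1.17, 2.74 and 2.77 FPKM in mutants 1 to 4, the largest fold change of any member (0.71 ± 0.28 SE, limma adjusted p = 0.129) at the lowest level. Wildtype 3 lay among the mutant libraries. Cox7a1 had 16.4 ± 2.20 and 20.0 ± 5.42 FPKM, and its share beside Cox7a2 was 13.9% ± 1.75 in wildtype and 14.4% ± 2.49 in mutants. None of 8 skeletal and cardiac muscle markers reached a mean of 1 FPKM. Cox6b2, the testis isoform, had 2.32 ± 0.20 and 2.53 ± 0.67 FPKM. The ratios of Cox6a2 to Cox6a1, Cox6b2 to Cox6b1 and Cox7a1 to Cox7a2 differed by 0.49, -0.19 and 0.05 on the log2 scale, with exact permutation p of 0.2, 0.429 and 0.943.

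Complex V had 8 of 15 members without overlap, mutants above (53.3%, against 18.9% of all genes). It had 0 called, while 8.76% of all genes were called higher. In wildtype its members ran from 68.8 FPKM (Atp5d) to 431 FPKM (Atp5b), the catalytic beta subunit, which had 431 ± 29.1 FPKM in wildtype and 516 ± 59.5 in mutants without overlap (log2 fold change 0.25, limma adjusted p = 0.159). The largest change was in Atp5k, a small membrane subunit at the interface of ATP synthase dimers (chromosome 5, 108433244 to 108434448, minus strand), with 289, 254 and 302.5 FPKM in wildtype and 337, 342, 411 and 468 FPKM in mutants. The groups did not overlap, and the log2 fold change of 0.46 ± 0.14 (SE) had a limma adjusted p of 0.0612. Atp5l, its neighbour in the membrane part, had 269 ± 24.4 and 342 ± 39.4 FPKM without overlap (limma adjusted p = 0.0794). By part of the enzyme, the median log2 fold change was 0.34 in the 3 small membrane subunits and 0.25 in the 4 of the peripheral stalk. It was 0.23 in the 5 of F1 (head and central stalk together) and 0.07 in the 3 genes of the c ring. With scaling on the pan-endothelial markers these medians were -0.02, -0.11, -0.13 and -0.29 in the same order. With quantile normalization that of the c ring was -0.04. The c ring genes all encode the same mature c subunit.

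Among the c ring genes Atp5g3 alone was without overlap, at 249, 249 and 281 FPKM in wildtype and 299.8, 304, 296 and 352 FPKM in mutants (limma adjusted p = 0.101). Its share of the 3 genes' summed FPKM was 51.6% ± 1.32 in wildtype and 55.2% ± 2.16 in mutants, with mutant 3 at 52.0% inside the wildtype range. Atp5g1 and Atp5g2 had 100 ± 6.65 and 103.5 ± 12.9 FPKM, and 143 ± 2.75 and 150.4 ± 11.4 FPKM. The log2 ratios of Atp5g1 and of Atp5g2 to Atp5g3 differed by -0.22 and -0.20 (exact permutation p = 0.171 and 0.0857, adjusted 0.28 and 0.2). The named non-subunits Atp5s and Atp5sl had log2 fold changes of -0.05 and -0.09.

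Fold changes among the members were smaller in transcripts of higher GC content. Over the 82 tested members Spearman's rho between the log2 fold change and GC percent was -0.51, and over 12868 genes with a transcript model it was -0.20, as a description across genes that share the same 7 libraries. Members under 45% GC had a median log2 fold change of 0.28 (9 members) against 0.12 for all genes in that range, those from 45% to 50% had 0.24 (20) against 0.07, those from 50% to 55% had 0.19 (29) against 0.02, those from 55% to 60% had 0.07 (21) against -0.04, and the 3 at 60% or more had -0.05 against -0.05. Members stood above all genes of like GC in the first 4 ranges. All 3 called members were under 50% GC, and Ndufs7 and Ndufa4l2 were at 60.2% and 59.3%. After a loess correction for GC in each library the members' median was 0.17, that of complex I 0.13 and that of complex IV 0.28, complex IV minus complex I stayed at 0.15, and 5 members were called higher: Cox5a, Cox7b, Cox4i1, Atp5k and Ndufb9. Transcript length showed a rho of -0.04 among the members.

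**Figure D5:**
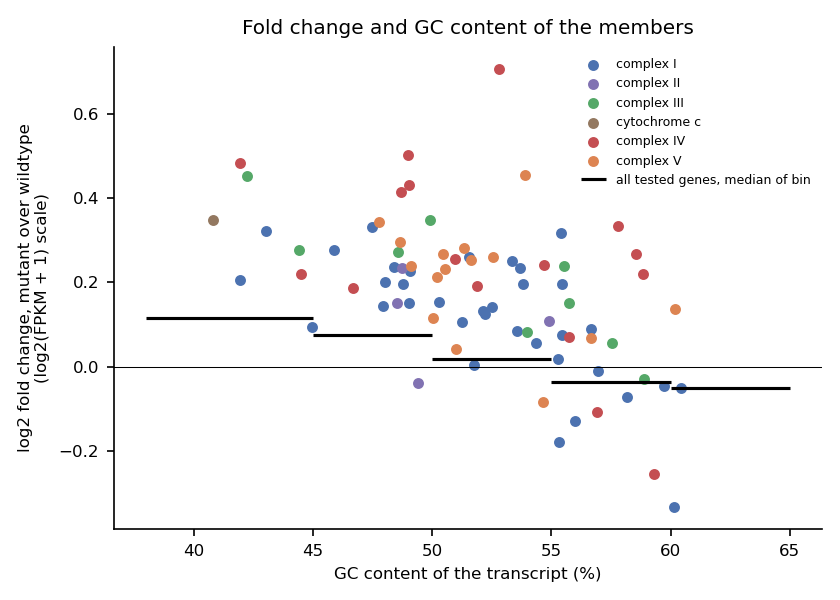
Log2 fold change (mutant over wildtype) against the GC content of the transcript for 80 tested members, coloured by complex; black lines are the medians of all tested genes in 5 ranges of GC. Fold changes fall with GC (rho -0.51 over 82 members), and Ndufs7 at 60.2% GC is the lowest point.

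Genes around the chain were counted from lists of assembly factors, regulators and partners. Of all tested genes 8.76% were higher, 7.34% were lower, and 32.4% had an unadjusted limma p under 0.05. Of the 14 complex I assembly factors 1 was higher (Ndufaf1, 5.36 ± 0.58 and 7.14 ± 0.65 FPKM, limma adjusted p = 0.0430) and 0 lower, with Nubpl and Ndufaf2 next (0.31 and 0.32 on the log2 scale). The 4 of complex II (smallest p in Acn9, Sdhaf2 and 1110058L19Rik), 5 of complex III (Ttc19, Uqcc, AI462493), 20 of complex IV and 3 of complex V (Tmem70, Atpaf1, Atpaf2) gave 0 called in either direction, and 0, 1, 0 and 0 at an unadjusted limma p under 0.05. The assembly factors of complex IV, among them those that insert its haem and copper, had a median log2 fold change of -0.03, beside 0.25 for the subunits of that complex, and those with the smallest p were Chchd8 (-0.41), 2310016M24Rik (-0.27) and 6330578E17Rik (-0.15). Of 5 tested subunits and regulators that bear other names 0 were called, with 2 at an unadjusted limma p under 0.05: Usmg5, an ATP synthase subunit, had a log2 fold change of 0.29, Ndufab1, the acyl carrier protein of complex I, of 0.40, and Cox7a2l, which joins complexes III and IV into supercomplexes, of -0.16.

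The 14 citric acid cycle enzymes all had log2 fold changes above 0, with a median of 0.17, whereas 13 were above 0 with median-of-ratios scaling, 12 with quantile normalization and 2 (median -0.18) with scaling on the pan-endothelial markers. None was called, and 4 had an unadjusted limma p under 0.05 (28.6%, against 32.4% of all genes). Those with the smallest p were Suclg2 (0.47, limma adjusted p = 0.0643) and Sucla2 (0.38), of succinyl-CoA ligase, and Dld (0.34), a shared dehydrogenase subunit. Among the 21 alternatives, Suclg2 was called higher under 4, Sucla2 under 3 and Dld under 2. Of the 6 carriers and porins 2 were higher (33.3%, against 8.76% of all genes), both exchangers of ADP and ATP. They were Slc25a5 (264 ± 25.5 and 352 ± 33.0 FPKM, limma adjusted p = 0.0373) and Slc25a4 (109.9 ± 5.58 and 138 ± 9.75 FPKM, limma adjusted p = 0.0415). Slc25a3, the phosphate carrier, was at 0.24. Under scaling on the pan-endothelial markers the log2 fold change of Slc25a4 was -0.04. Each of these calls was lost under 10 of 21 alternatives, with adjusted p up to 0.835 and 0.871, among them, for both, the omission of wildtype 1 (0.114 and 0.121), wildtype 2 (0.143 and 0.145), mutant 2 (0.0604 and 0.0757), mutant 3 (0.0504 and 0.0673) or mutant 4 (0.0609 and 0.0787), for Slc25a5 also mutant 1 (0.0683) and for Slc25a4 also wildtype 3 (0.0697). Ndufaf1 was lost under 12, with the omission of any 1 library among them (0.0521 to 0.164).

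Regulators of mitochondrial biogenesis were divided: of 11, 2 were higher (18.2%, against 8.76% of all genes) and 0 lower. Their median log2 fold change was -0.13. With scaling on the pan-endothelial markers 0 of them were higher and 3 lower, where 2405 of all 13420 genes were lower. Ppargc1a, the coactivator that drives biogenesis, averaged 5.05 FPKM in wildtype and 7.19 FPKM in mutants (log2 fold change 0.43 ± 0.12 SE, limma adjusted p = 0.0444), and Gabpa, the DNA-binding part of GABP, had 10.6 ± 0.83 and 13.4 ± 0.82 FPKM (limma adjusted p = 0.0370). The call of Ppargc1a was lost under 14 of 21 alternatives and that of Gabpa under 10, with adjusted p up to 0.593 and 0.944, and the calls were ended by the omission of wildtype 1 (0.0972 and 0.0728), wildtype 2 (0.145 and 0.148), wildtype 3 (0.1245 and 0.0725), mutant 1 (0.0732 and 0.0797), mutant 2 (0.0730 and 0.0854) or mutant 4 (0.0532 and 0.0747). Under scaling on the pan-endothelial markers the log2 fold change of Gabpa was -0.02. Polg, the mitochondrial DNA polymerase, was at -0.25 and Nrf1 at -0.17 without passing the test. Mitochondrial genes known as HIF targets gave 3 higher of 7 (42.9%, against 8.76% of all genes) and 0 lower. With scaling on the pan-endothelial markers 1 was higher, where 1.29% of all genes were higher. Bnip3, a receptor for removal of mitochondria, had 20.4 ± 2.74 and 43.3 ± 4.22 FPKM (log2 fold change 1.05, limma adjusted p = 0.00157) and kept its call under all 21 alternatives. Higd1a, which binds complex IV, had 10.4 ± 0.29 and 17.9 ± 2.27 FPKM (0.72, limma adjusted p = 0.00417), a call lost only under scaling on the pan-endothelial markers (0.0988). Pdk1, the kinase that shuts pyruvate out of the citric acid cycle, had 9.17 ± 0.18 and 14.6 ± 2.67 FPKM (0.60, limma adjusted p = 0.0204). Its call was lost under 7 of 21 alternatives: scaling on the pan-endothelial markers (log2 fold change 0.27, adjusted p = 0.283), each library rescaled to the same total (0.0553), the replicate block (0.0540) and the omission of wildtype 1 (0.0635), wildtype 2 (0.0842), wildtype 3 (0.0641) or mutant 1 (0.0592).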

How the data were processed

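Poly(A) RNA of bead-captured kidney endothelial cells was sequenced as paired ends from a stranded kit, per the labels' protocols. The deposited values are FPKM per gene, 1 column for each of 4 mutant and 3 wildtype libraries. Per the submitters' processing notes, reads were processed with RSEM 1.2.28, Trimmomatic 0.39 and Bowtie2 2.3.4.1 on build mm10. Annotation and strand setting were not given in the sources used here. FPKM divide fragment counts by transcript length and library total, so a level is relative to all other RNA in its library, and the reads behind a value are unknown. MicroRNA and small nucleolar RNA genes (775) took 3.83% to 17.7% of the named FPKM, and 429 entries without a name, which held 18.3% to 29.3% of all FPKM, were left out of tests. Of the 27 symbols on more than 1 entry, which were summed, none was a member.

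From these values log2(FPKM + 1) was computed, and genes with a mean of at least 1 FPKM (13420) were tested in limma 3.58.1 under R 4.3.3 (linear fit, trended empirical Bayes, mutant against wildtype, two-sided), with Benjamini-Hochberg adjustment over all of them and a call at an adjusted p under 0.05. A fold change on the log2(FPKM + 1) scale understates that of low genes. The script was tested on simulated data. Ratios of isoforms were compared by exact permutation tests. Complexes were described by counts and medians, with no test of a list.

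The members and lists were chosen with earlier results of these data known. Members were assigned to complexes and roles by hand. Named with values are all called members, in each complex the 3 members of smallest p and the 2 most abundant, and both genes of each isoform pair tested. In each list the 3 genes of smallest p are named, without values for the assembly factors of complexes II, III and V. Ratios with Cox8b or Cox7b2 were left out because those genes were below 1 FPKM. Of the 92 list genes all were matched, some through older symbols in RefSeq. Gene coordinates, length and GC content came from the GENCODE annotation of GRCm38; promoters came from RefSeq. Alternatives were another pseudocount, filter, scaling, length or GC correction, array weights, no trend, a replicate block and the omission of each library. The GC correction and the count of Ndufa4 and Ndufa4l2 in complex I were chosen after seeing the data. The values of 1 complex I member are not reported here by themselves.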

Additional observations from a re-analysis of the deposited data

Results flagged for a closer look

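Of 75 values checked for a mutant library far from the other 3, 9 met the criterion, and chance alone gives about 1 in 20. Mutant 4 was the library set apart in 6: Atp5g3 at 352 FPKM, Cycs at 54.9 FPKM, Ndufs4 at 35.4 FPKM, Sdhc at 99.7 FPKM, Cox6a1 at 356 FPKM and the ADP/ATP carrier Slc25a5 at 401 FPKM, each above the other mutant libraries. Mutant 1 was low for Ndufa4l2 at 6.20 FPKM. Mutant 3 was high for Ppargc1a at 9.05 FPKM and low for the distance of complex IV above complex I, 0.139 on the log2 scale, which was still above the 3 wildtype libraries.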

How the results depend on the processing

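Called members numbered 3 higher and 0 lower; the count of higher members was 1 with each library rescaled to the same total, 14 with that rescaling without microRNA and small nucleolar RNA genes, 12 with a length correction, 5 with the GC correction, 20 with array weights, and 0 both with scaling on the pan-endothelial markers and with a replicate block. Omission of single libraries gave 0 to 3 higher members, with 0 without wildtype 2, and 0 to 1 lower. Lower members were 2 with array weights and 2 with pan-endothelial scaling, Ndufa4l2 and Ndufs7 in both. That scaling moved the median of all genes to -0.27, and the medians of members and of complexes I to V to -0.16, -0.22, -0.23, -0.12, -0.10 and -0.12, which are 0.11, 0.06, 0.04, 0.15, 0.17 and 0.15 above it. Among the named genes called without it, the scaling turned the sign of Slc25a4 (-0.039, limma adjusted p = 0.871) and Gabpa (-0.016, adjusted p = 0.944). Signs also turned in genes that were not called: 68 of 82 members were above 0 without the scaling and 7 with it. Of the 14 citric acid cycle enzymes 14 and 2 were above 0. The cause of these shifts was not tested. Complex IV minus complex I was 0.19 with Ndufa4 and Ndufa4l2 in complex I.

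Over all genes, 1176 were higher and 985 lower. Higher genes numbered 576 with the same total, 173 with pan-endothelial scaling, 2258 with array weights and 321 to 1205 with single libraries omitted; lower genes numbered 2405, 1812 and 521 to 1077 with the last 3. The share of calls that were higher was 54.4%, against 41.7% with the same total, 42.3% with median-of-ratios scaling and 6.71% with pan-endothelial scaling. The replicate block gave 261 higher and 423 lower genes. Same-numbered libraries did not deviate together (correlations -0.06, 0.03 and -0.28), so the numbers are not taken as pairs; mutant 4 has no wildtype of its number and drops out of that fit. For 62 named genes, 1157 of 1296 values under alternatives kept their side of the threshold. A change of sign counted against this only where the gene was called with or without the alternative. With the depth unknown, the counting error of low genes such as Cox4i2, Ndufa4l2 and Cox6a2 cannot be given.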
